A study of Mus musculus with 18 samples.

Results

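The collagen chains, laminin chains and integrin subunits were described together with 6 other matrix genes, Fn1, Nid1, Nid2, Hspg2, Sparc and Spp1, in mouse embryonic stem cells (ESCs) and in the epiblast-like cells (EpiLCs) derived from them. Members were chosen by symbol alone, as every gene named Col, Lama, Lamb, Lamc, Itga or Itgb with the number or letter of a chain. The rule found 55 of the 14411 genes in the deposited count tables. Of these, 43 were in the table of ESCs (13104 genes), 53 in that of EpiLCs (13717 genes) and 41 in both.

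The cells were BVSC ESCs, which carry the fluorescent reporters Blimp1::mVenus and Stella::ECFP. The study worked with a female clone and repeated some measurements in a male clone. ESCs grew in 2i and LIF on a coat of poly-L-ornithine and laminin, and were differentiated into EpiLCs on human plasma fibronectin with activin A and bFGF. Each cell type was exposed continuously to Δ9-THC, the main psychoactive cannabinoid of cannabis, at 100 nM or to the vehicle (mock), and the EpiLCs came from ESCs that had received the same exposure. Each of the 4 groups held 3 biological replicates.

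Cells attach to the extracellular matrix through integrins, receptors made of an alpha and a beta subunit. In the early embryo the first such matrix is the basement membrane, a sheet of laminin trimers (an alpha, a beta and a gamma chain) and a network of type IV collagen, linked by nidogens and the proteoglycan perlecan (Hspg2). Fibrillar collagens belong to connective tissue and bone, and are usually low in pluripotent cells. In bulk RNA, fewer cells of a type and less RNA per cell cannot be told apart.

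The total of the adjusted counts lay between 23427551 and 32096698 over the 12 libraries. The members took between 0.531% and 0.638% of these counts in ESCs and between 0.27% and 0.305% in EpiLCs. Markers of naive pluripotency summed to 5495 to 6006 CPM (counts scaled to the library's size) in ESC libraries and 590.4 to 652.9 CPM in EpiLC libraries. The sums for primed pluripotency were 173 to 197.8 CPM in ESCs and 1811 to 2190 CPM in EpiLCs, so both labels held. Of 19 markers of primitive endoderm, a cell type known for basement membrane synthesis, 4 were in the table of ESCs and 5 in that of EpiLCs. They summed to 11 to 13.4 CPM in ESCs and to 167.4 to 211.7 CPM in EpiLCs. Gata4 and Lrp2 were in both tables, Hnf4a and Thbd in that of ESCs only, and Dab2, Amn and Pth1r in that of EpiLCs only. Gata6, Sox17, Sox7 and Pdgfra were in neither table.

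The reference sequence upstream of 4 members is shown because the genes stand at both ends of the change from ESCs to EpiLCs described next: Nid1 and Spp1 among the largest falls, Lamb1 and Lama5 among the rises. They are RefSeq promoter sequences on GRCm38.p6, read on the strand of the gene and ending before the first transcribed base of the annotation. They lie at chr13:13437352-13437550 on the plus strand for Nid1, chr5:104434861-104435110 on the plus strand for Spp1, chr12:31265043-31265233 on the plus strand for Lamb1 and chr2:180225860-180226109 on the minus strand for Lama5. Capitals mark matches on either strand to 3 short motifs. The GC box was searched as the letters GGGCGG. The CCAAT box was searched as the letters of its name, which share no match with the other motifs, and the TATA box as TATAAA.
Nid1: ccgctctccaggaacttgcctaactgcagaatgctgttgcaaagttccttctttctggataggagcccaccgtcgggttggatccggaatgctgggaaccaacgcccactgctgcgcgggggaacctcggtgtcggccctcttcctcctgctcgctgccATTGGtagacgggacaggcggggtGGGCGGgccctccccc
Spp1: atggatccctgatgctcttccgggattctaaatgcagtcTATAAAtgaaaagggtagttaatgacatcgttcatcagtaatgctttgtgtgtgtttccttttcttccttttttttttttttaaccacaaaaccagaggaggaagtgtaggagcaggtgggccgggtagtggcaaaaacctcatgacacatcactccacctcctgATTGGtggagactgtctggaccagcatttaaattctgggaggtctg
Lamb1: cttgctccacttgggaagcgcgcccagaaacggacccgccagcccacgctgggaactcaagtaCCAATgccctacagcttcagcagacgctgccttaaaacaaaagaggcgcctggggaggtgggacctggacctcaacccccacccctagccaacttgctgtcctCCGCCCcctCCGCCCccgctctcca
Lama5: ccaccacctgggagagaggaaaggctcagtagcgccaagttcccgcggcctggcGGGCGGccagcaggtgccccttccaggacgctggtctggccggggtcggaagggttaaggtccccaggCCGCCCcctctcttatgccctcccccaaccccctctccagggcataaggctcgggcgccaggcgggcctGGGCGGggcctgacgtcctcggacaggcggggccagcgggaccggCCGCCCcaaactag
The stretch before Lama5 held 4 GC boxes, that before Lamb1 2, that before Nid1 1 and that before Spp1 0. A TATA box was found before Spp1 alone among these 4, and a CCAAT box before Nid1, Spp1 and Lamb1. Of the 36 members in the promoter table, 61.1% held a GC box in the 250 bases upstream, against 57.3% of the 13598 promoters of genes in the tables. The CCAAT box was found in 38.9% of the members' promoters and 35.6% of those of all genes in the tables, and the TATA box in 8.33% and 6.32%. A match of letters is a description and not a site of binding.

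Vehicle ESCs had RNA of laminin chains, nidogens, perlecan and type IV collagen, the last at a low level. Levels between genes are given here as RPKM, the CPM per kilobase of exon, as mean ± SD of 3 replicates, on a scale shared by the 12 libraries. The highest member was Spp1 (osteopontin, a secreted ligand of integrins) at 507.2 ± 47 RPKM, followed by Fn1 (fibronectin, the ligand of integrin α5β1) at 157.2 ± 5.91 and Sparc (a collagen-binding glycoprotein) at 101.1 ± 5.1. Spp1 ranked 59 among the 13104 genes of the table by this measure, and Fn1 262. The exons of Spp1 share 18.8% of their bases with exons of another annotated gene (either strand was counted), where reads may have been left out of the count. The spread of these 3 genes did not overlap.

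Among the linkers of the basement membrane, Nid2 stood at 86.2 ± 2.41 RPKM, Nid1 at 49.2 ± 1.55 and Hspg2 at 17.5 ± 1.72. The laminin chains were led by Lamc1, the gamma chain shared by most laminins, at 76 ± 2.91 RPKM. The alpha chains were far lower, with Lama5 at 10.4 ± 0.7, Lama1 at 6.92 ± 0.536 and Lama3 at 3.17 ± 0.115 RPKM. The beta chains stood at 7.13 ± 0.681 RPKM for Lamb2 and 2.185 ± 0.224 for Lamb1. Among integrin subunits, Itgb1, the common partner of most matrix-binding alpha subunits, was highest at 62.7 ± 4.08 RPKM. Its partners Itga6 (laminin receptor) at 21.7 ± 1.31 RPKM, Itga5 (fibronectin receptor) at 17 ± 0.719 and Itga3 (laminin receptor) at 10.1 ± 0.23 were the highest alpha subunits, and Itgav stood at 4.71 ± 0.292. Of collagens, 2 were well above the rest, Col18a1 (basement membrane collagen XVIII) at 26.1 ± 0.421 RPKM and Col9a2 at 19.1 ± 0.248. The chains of type IV collagen were low, at 1.18 ± 0.069 RPKM for Col4a1 and 0.788 ± 0.053 for Col4a2, and the fibrillar Col1a1 stood at 0.656 ± 0.049.

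**Figure D1:**
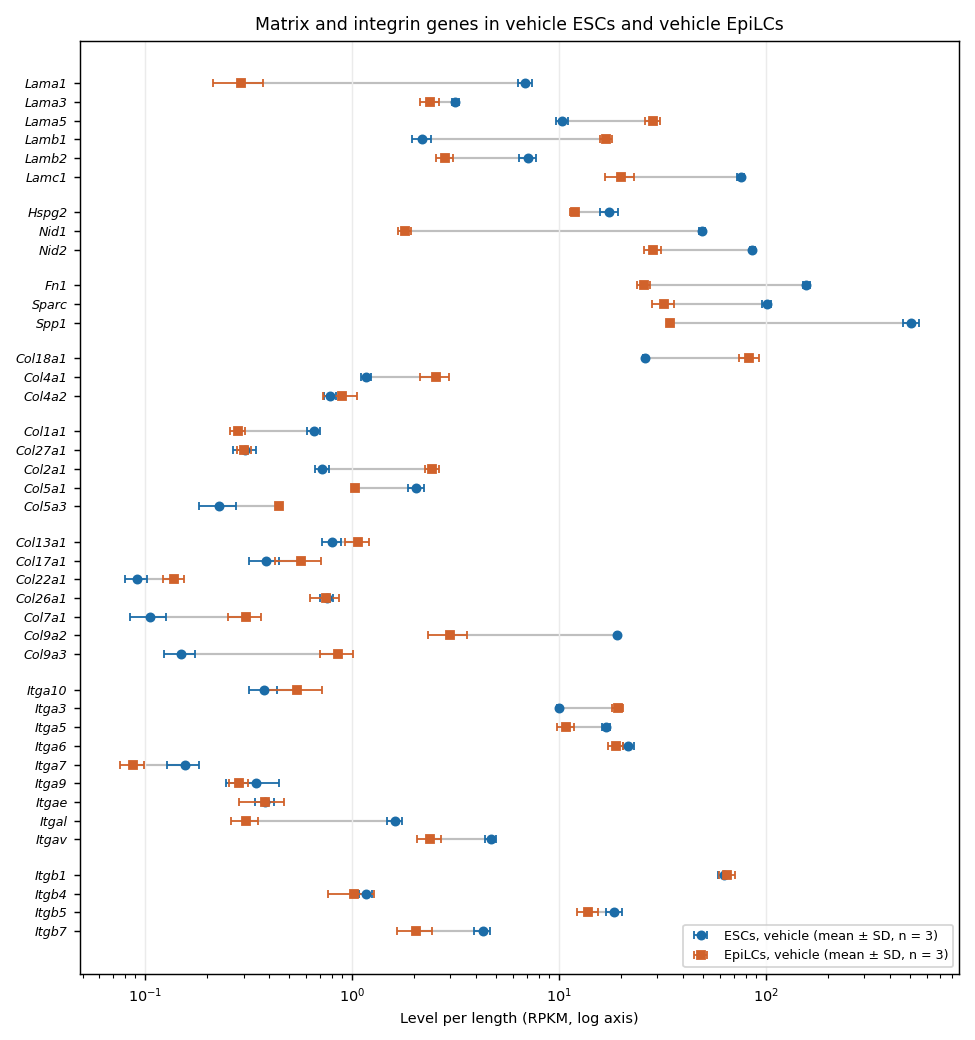
Level of the members in both tables (1 of the 41 is not drawn) in vehicle ESCs (circles) and vehicle EpiLCs (squares), as RPKM on a log axis, mean ± SD of 3 replicates, grouped by role and joined by a line for each gene. Most glycoproteins, linkers and laminin chains lie to the left in EpiLCs, Lamb1, Lama5, Col18a1 and Col2a1 lie to the right, and Itgb1 and Itga6 nearly coincide.

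The second question was how this set differed between vehicle ESCs and vehicle EpiLCs. Batch adjustment had been run on each cell type alone, and the differences are therefore described without a test. Of the 41 members in both tables, 7 were at least 2-fold higher in EpiLCs (11.2% of the 12410 genes in both tables were) and 13 at least 2-fold lower (10.5% of all genes). The libraries did not overlap for 12 members on the higher side (37.1% of all genes) and 20 on the lower side (38.3% of all genes). The median log2 difference, EpiLCs over ESCs, was -0.28 for the members and 0.00 for all genes. The glycoproteins and linkers were lower and the collagens mixed, while most integrins were within 2-fold, as were most of all genes.

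All 3 glycoproteins were at least 2-fold lower in EpiLCs. Spp1 stood at 34.7 ± 0.544 RPKM, 14.6-fold below ESCs. Fn1 stood at 25.7 ± 1.84 RPKM, 6.12-fold lower, and Sparc at 32.3 ± 3.92 RPKM, 3.13-fold lower. The order of these genes thus changed, with Sparc above Fn1 in EpiLCs. The SDs of Spp1 and Sparc overlapped there. Nid1, at 1.81 ± 0.127 RPKM, was 27.2-fold lower, which was the largest difference among the 41 members. Nid2 was lower by less, 3.03-fold, and Hspg2 was within 2-fold at 11.9 ± 0.538 RPKM.

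The laminin chains divided within each class. Of the alpha chains, Lama1 was 23.7-fold lower in EpiLCs, at 0.292 ± 0.079 RPKM, while Lama5 was 2.74-fold higher, at 28.5 ± 2.26 RPKM. Of the beta chains, Lamb2 was 2.53-fold lower and Lamb1 7.76-fold higher, at 17 ± 1.2 RPKM. Lamc1 was 3.82-fold lower, at 19.9 ± 3.11 RPKM. In vehicle ESCs Lama5 was above Lama1 by less than in vehicle EpiLCs, where Lama5, Lamb1 and Lamc1, the chains of laminin-511, were the 3 highest laminin genes. The upstream sequences of Lama5 and Lamb1 given above held 4 and 2 GC boxes. This motif was as common upstream of the members (61.1%) as of all genes in the tables (57.3%) or nearly so. A link between it and the direction of the difference was not tested.

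Of the collagens, those of the basement membrane were higher or within 2-fold in EpiLCs. Col18a1 reached 83.5 ± 9.39 RPKM, 3.2-fold higher, and became the member with the highest level. Col4a1 was 2.17-fold higher, at 2.55 ± 0.417 RPKM, and its partner chain Col4a2 was 1.13-fold higher, at 0.893 ± 0.169 RPKM, with overlapping libraries. These genes lie head to head on chromosome 8 and share a promoter region. The cartilage collagens Col9a3 (5.76-fold) and Col2a1 (3.41-fold) were higher and Col9a2 6.44-fold lower, and Col7a1, the anchoring fibril collagen, was 2.9-fold higher from a level of 0.106 ± 0.021 RPKM. Col1a1 was 2.33-fold lower.

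Most integrins were within 2-fold, 8 of 9 alpha subunits and 3 of 4 beta subunits, as were 9717 of the 12410 genes in both tables. Of 9 alpha subunits, 1 was at least 2-fold lower (Itgal, a leukocyte integrin, 5.25-fold) and none was 2-fold higher, and of 4 beta subunits 1 was lower (Itgb7, 2.09-fold). Itgb1 was at 65 ± 5.78 RPKM in EpiLCs, 1.04-fold its level in ESCs, and Itga6 at 19 ± 1.6 RPKM, both with overlapping libraries. Itga5 was 1.56-fold lower and Itgav 1.97-fold lower, and Itga3 was 1.92-fold higher, at 19.3 ± 1.14 RPKM, without overlap. In the libraries exposed to Δ9-THC, 8 of the 41 members were at least 2-fold higher in EpiLCs (11.5% of all genes) and 13 at least 2-fold lower (9.3% of all genes).

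Members in a single table add to this. Itgb3 and Col11a1 were in the table of ESCs only, at 6.5 ± 0.51 and 2.72 ± 0.369 CPM in vehicle libraries. The 12 genes in the table of EpiLCs only were Col16a1, Col1a2, Col5a2, Col6a2, Col6a4, Col6a5, Col8a2, Itga1, Itga2b, Itgb8, Lama4 and Lamb3. Col6a5 led these at 17.2 ± 2.63 CPM, and the other 11 had vehicle means of no more than 2.75 CPM. Genes with low counts had been removed from each table, so the level in the other cell type is not given.

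The third question was whether Δ9-THC changed these genes in ESCs. Of 43 members, 8 passed the test of edgeR at an adjusted p-value of 0.05: 1 was higher (3.37% of all 13104 genes were called higher) and 7 were lower (3.55% of all genes). With the replicate number as a block 0 of the 43 members passed (5 of all 13104 genes did), and with offsets for GC content and gene length also 0. The lower genes were the basement membrane chains Col4a1, Col4a2 and Col18a1, the collagens Col5a1 and Col9a2, the linker Nid2 and the laminin receptor subunit Itga3. The higher gene was Itgae, the alpha subunit of an integrin of intraepithelial lymphocytes. The 7 lower genes differed by little, with Δ9-THC against vehicle ratios of 0.897 for Nid2 to 0.726 for Col4a1.

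Col4a1 (chromosome 8 from 11198423 to 11312826 in GRCm38) had 9.07, 8.97 and 8.16 CPM in vehicle ESCs and 6.03, 6.16 and 6.88 CPM in exposed ESCs. The fitted log2(fold-change) was -0.46 ± 0.08 (SE; adjusted p-value = 0.0318). Col4a2 (chromosome 8 from 11312805 to 11449287) had 5.3, 5.47 and 4.8 CPM with the vehicle and 3.73, 3.61 and 4.24 CPM with Δ9-THC, which is a change on the log2 scale of -0.43 ± 0.09 (SE; adjusted p-value = 0.0466). In both chains of type IV collagen every exposed library was below every vehicle library, and the size of the change was the same within its error. Col18a1 (chromosome 10 from 77052178 to 77166548), the most abundant collagen, had 179, 185 and 183 CPM with the vehicle and 160, 155 and 158 CPM with Δ9-THC. The fitted log2(fold-change) was -0.21 ± 0.03 (SE; adjusted p-value = 0.0283). All 3 collagen chains of the basement membrane in the table of ESCs were thus lower without overlap.

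Col9a2 (chromosome 4 from 121039385 to 121055322), a chain of the fibril-associated collagen IX, fell from 59.7, 58.8 and 58.3 CPM to 47, 47.9 and 48.6 CPM. Its log2(fold-change) of -0.30 ± 0.03 (SE) had the lowest adjusted p-value of the members, 0.0265. Col5a1 (chromosome 2 from 27886425 to 28039514), a fibrillar chain that regulates fibril width, had 17.3, 19 and 15.8 CPM with the vehicle and 12.8, 11.5 and 14.2 CPM with Δ9-THC. The fitted log2(fold-change) was -0.44 ± 0.10 (SE; adjusted p-value = 0.0498), at the edge of the threshold. The groups of both genes did not overlap.

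Nid2 (chromosome 14 from 19751265 to 19811787) had 451, 451 and 430 CPM with the vehicle and 391, 392 and 412 CPM with Δ9-THC, which is a change on the log2 scale of -0.16 ± 0.03 (SE; adjusted p-value = 0.048). Itga3 (chromosome 11 from 95044474 to 95076801) had 56.2, 58.7 and 56.5 CPM with the vehicle and 50.3, 48.2 and 50.5 CPM with Δ9-THC, which is a change on the log2 scale of -0.20 ± 0.04 (SE; adjusted p-value = 0.0331). Itgae (chromosome 11 from 73090583 to 73147446) had 1.58, 1.93 and 1.7 CPM with the vehicle and 2.72, 2.28 and 2.56 CPM with Δ9-THC, which is a change on the log2 scale of 0.53 ± 0.12 (SE; adjusted p-value = 0.0499). The groups of these 3 genes did not overlap, and Itgae was the least abundant gene among the 8.

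**Figure D2:**
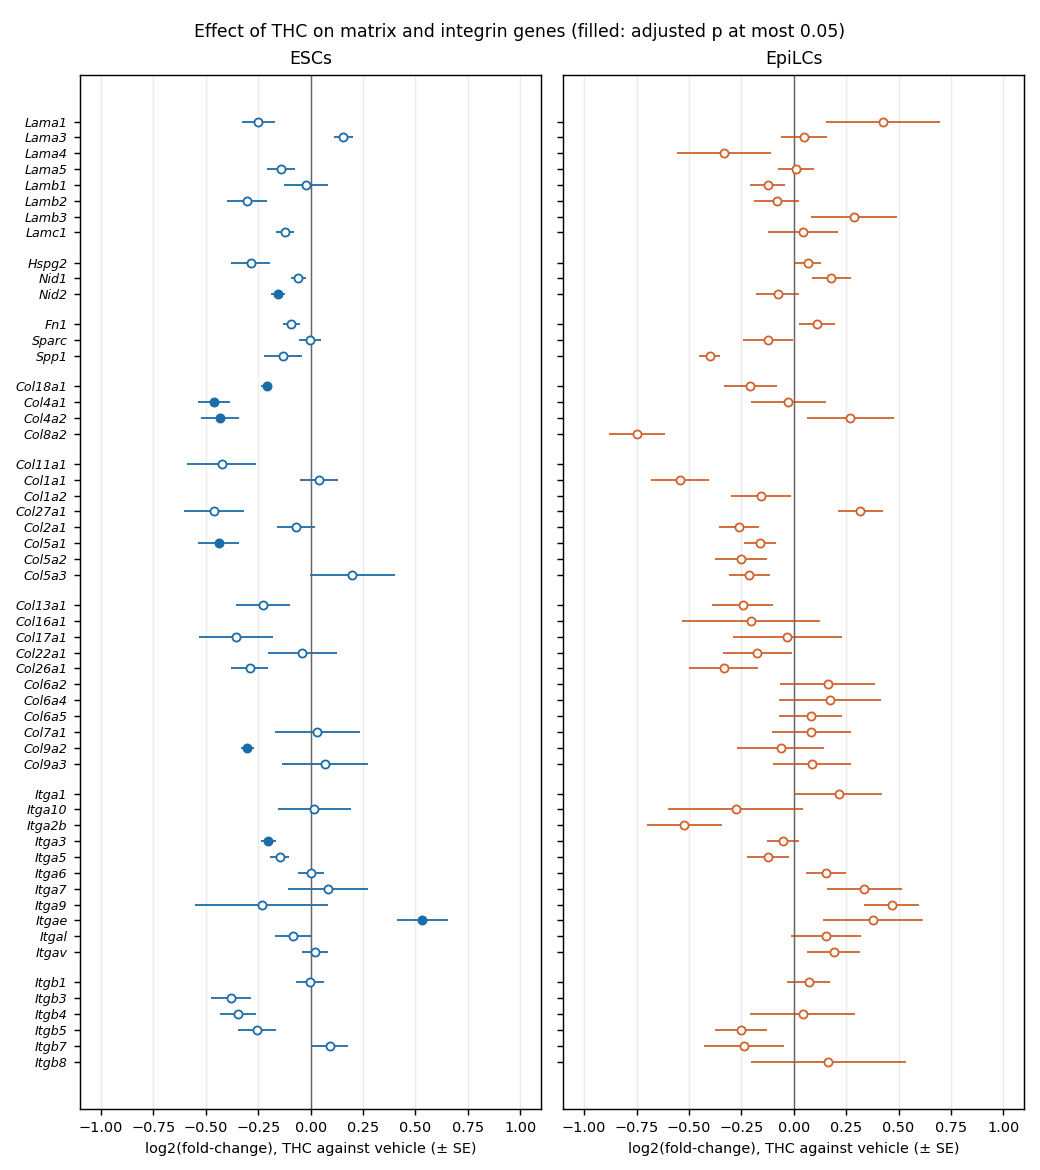
log2(fold-change) between Δ9-THC and vehicle libraries for the members in ESCs (left) and EpiLCs (right), 1 of them not drawn, with its standard error, grouped by role. Filled points passed the test at an adjusted p-value of 0.05, which 8 members did in ESCs and 0 in EpiLCs.

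The members that did not pass include the most abundant ones. Spp1 had 753, 910 and 832 CPM with the vehicle and 833, 683 and 762 CPM with Δ9-THC, with a log2(fold-change) of -0.13 ± 0.09 (SE; adjusted p-value = 0.386). Fn1 was at -0.09 ± 0.04 (SE; adjusted p-value = 0.21) and Sparc at 0.00 ± 0.05 (SE; adjusted p-value = 0.972). The groups of all 3 glycoproteins overlapped. Of 7 laminin chains 0 passed with edgeR, with log2(fold-change) values from -0.30 for Lamb2 to 0.16 for Lama3, and those of Lama1 (-0.25), Lamc1 (-0.12) and Lama3 came from groups that did not overlap. DESeq2 called Lamb2 (adjusted p-value = 0.0301) and Lama1 (adjusted p-value = 0.0368) lower. The linkers Hspg2 and Nid1 stood at -0.29 ± 0.09 (SE; adjusted p-value = 0.107) and -0.06 ± 0.04 (SE; adjusted p-value = 0.316), with overlapping groups. Hspg2, which DESeq2 called lower (adjusted p-value = 0.0171), with 250.2, 274 and 225 CPM with the vehicle and 204, 185 and 226 CPM with Δ9-THC, overlapped by a single pair of libraries. Among beta integrins 0 of 5 passed with edgeR, where Itgb3 (-0.38, adjusted p-value = 0.0602) and Itgb4 (-0.35, adjusted p-value = 0.0611) had the lowest adjusted p-values. With DESeq2 these were 0.128 and 0.12, and Itgb5 was called lower (-0.26, adjusted p-value = 0.0467). Itgb1 stood at 0.00 ± 0.07 (SE) with edgeR.

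Over the 43 members the fitted change was negative in 31 (48.9% of all genes). The median log2(fold-change) was -0.13 for the members and 0.00 for all genes. The groups did not overlap in 15 members on the lower side (15.9% of all genes) and 2 on the higher side (16.7% of all genes). At an unadjusted p-value under 0.05, 18 members were lower (13.8% of all genes) and 2 higher (14.9% of all genes). By class, the median was -0.43 for the 3 basement membrane collagens, -0.25 for the 6 fibrillar collagens, -0.12 for the 7 laminin chains, 0.00 for the 9 alpha integrins and -0.26 for the 5 beta integrins. With the GC and length offsets these medians were -0.26, -0.08, 0.02, -0.02 and -0.15, so that of the laminin chains turned positive and that of the alpha integrins negative.

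**Figure D3:**
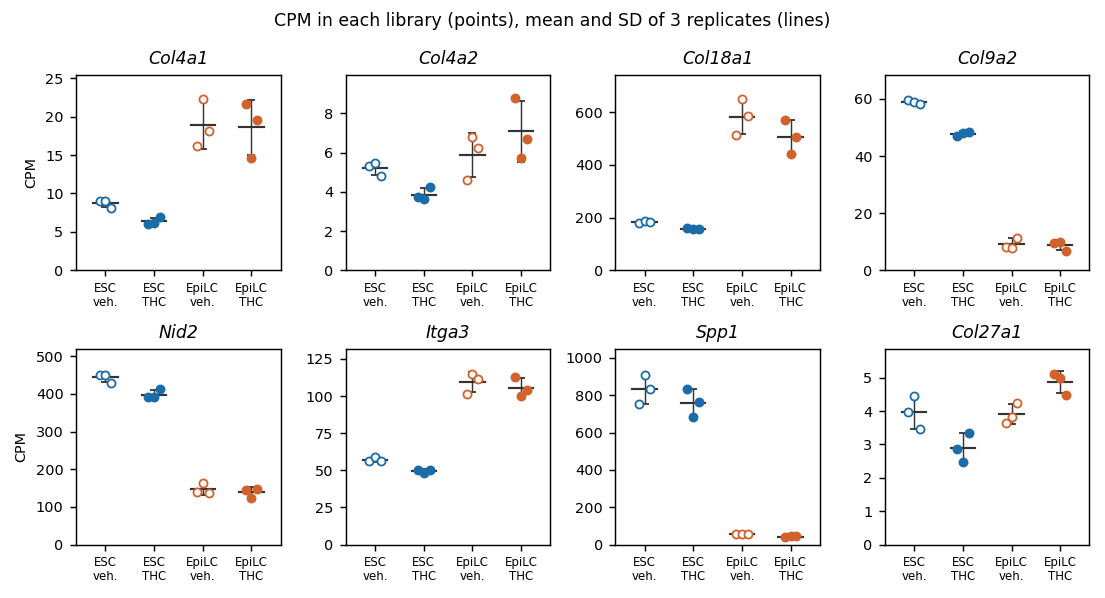
CPM of 8 members in every library, with open points for vehicle and filled points for Δ9-THC, blue for ESCs and orange for EpiLCs, and a line with bars for the mean ± SD of 3 replicates. The first 6 genes were lower in exposed ESCs without overlap, and Spp1 was lower without overlap in exposed EpiLCs. Col27a1 was lower in exposed ESCs and higher in exposed EpiLCs without overlap, and passed the test of edgeR in neither.

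GC content moved with these changes. Across the 13083 genes of ESCs with a known GC content, Spearman's rho between log2(fold-change) and GC content was -0.54, and across the 43 members it was -0.22. These are correlations across genes, which share the same 6 libraries and are not independent replicates. The median GC content of the longest transcript was 57.0% for the members and 49.7% for all genes. With offsets that remove each library's trend with GC content and gene length, 0 of the 43 members passed the test of edgeR, as did 2 of all 13104 genes (0.0153%), and 10 members had an unadjusted p-value under 0.05 (18.6% of all genes). The median of the members moved to -0.05 and 27 of 43 were fitted as negative (49.7% of all genes). With the offsets Col4a1 was at -0.33, Col4a2 at -0.26, Col5a1 at -0.30, Itgae at 0.56, Col9a2 at -0.11, Nid2 at -0.08, Itga3 at -0.08 and Col18a1 at -0.03, and none of the 8 passed. Leaving out any single library also left 0 members called. How many of all genes passed in those fits is not given here, so this is no result about the members alone. DESeq2 called 10 members, all lower, among the 31 to which it gave an adjusted p-value (3.02% of the genes with an adjusted p-value there were called lower). Col4a2 was not among the 10 (DESeq2 adjusted p-value = 0.117), and Itgae was given no adjusted p-value by DESeq2. In the adjusted tables, libraries with the same replicate number deviate from their group means in opposite directions, so the 6 libraries are not 6 independent measurements. The p-values and standard errors of the fit without a block take them as such and are then too small. With the replicate number as a block the standard error of Col4a1 was 0.15 instead of 0.08, and the adjusted p-values of the 8 genes were 0.414 to 0.447.

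**Figure D4:**
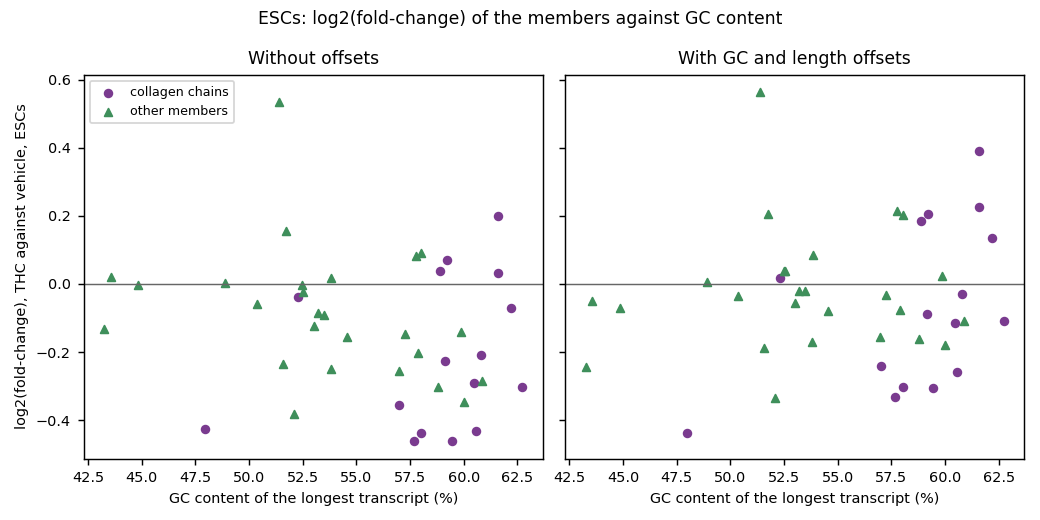
log2(fold-change) of the members in ESCs (1 of the 43 is not drawn) against the GC content of the longest transcript, without (left) and with (right) the GC and length offsets, collagen chains as circles and other members as triangles. Without offsets most members from 57% GC upward lie below 0. The collagens lie on both sides of 0 without and with the offsets, with more of them below 0 each time.

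In EpiLCs, 0 of 53 members passed the test of edgeR, as did 0 of all 13717 genes (0%), and 7 members had an unadjusted p-value under 0.05 (15.1% of all genes). DESeq2 called 1 member, Spp1 (0.751% of the genes with an adjusted p-value there were called). Spp1 had 57.4, 56.9 and 56.2 CPM in vehicle EpiLCs and 42.2, 43.2 and 43.5 CPM in exposed EpiLCs. In the adjusted counts every exposed library was below every vehicle library and the spread within groups was small. Its log2(fold-change) was -0.40 ± 0.05 (SE; adjusted p-value = 0.144 with edgeR and 0.0022 with DESeq2), and -0.42 with the GC and length offsets. These fits had no block and took the 6 libraries as independent. With the replicate number as a block the change was -0.40 ± 0.14 (SE; adjusted p-value = 0.999 with edgeR). Fn1 was at 0.11 ± 0.09 (SE) and Sparc at -0.12 ± 0.12 (SE), both with overlapping groups.

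The genes with the lowest adjusted p-value in EpiLCs after Spp1 were collagens. Col8a2, a network collagen of the cornea, had 2.68, 3.02 and 2.57 CPM with the vehicle and 1.68, 1.46 and 1.79 CPM with Δ9-THC, which is a change on the log2 scale of -0.75 ± 0.13 (SE; adjusted p-value = 0.144). Col1a1 had 1.89, 1.67 and 1.95 CPM with the vehicle and 1.17, 1.42 and 1.18 CPM with Δ9-THC, which is a change on the log2 scale of -0.54 ± 0.14 (SE; adjusted p-value = 0.199). Both genes were at 1 to 3 CPM, and their groups did not overlap. Of 7 fibrillar chains, 5 were lower without overlap (Col1a1, Col2a1, Col5a1, Col5a2 and Col5a3; 10.6% of all genes) and 1, Col27a1, was higher without overlap (11.2% of all genes). Over all 53 members, the groups did not overlap in 8 on the lower side and 4 on the higher side.

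Among the integrins of EpiLCs, the largest fitted changes were in subunits of low level. Itga9, which binds tenascin and osteopontin, had 1.92, 2.23 and 2.39 CPM with the vehicle and 3.31, 2.95 and 2.77 CPM with Δ9-THC, a difference of 0.47 ± 0.13 (SE; adjusted p-value = 0.213) on the log2 scale. Itga2b, the alpha subunit of the platelet fibrinogen receptor, had 1.85, 1.57 and 2.08 CPM with the vehicle and 1.17, 1.53 and 1.11 CPM with Δ9-THC, a difference of -0.52 ± 0.18 (SE; adjusted p-value = 0.263). Both pairs of groups were apart, in opposite directions. Itgb1, Itga6 and Itga5, the abundant receptors of laminin and fibronectin, were at 0.07 ± 0.10, 0.15 ± 0.10 and -0.12 ± 0.10 (SE), with overlapping groups.

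The basement membrane genes and the integrin subunit Itga3, which were called lower in exposed ESCs, did not pass in EpiLCs. Col4a1 was at -0.03 ± 0.18 (SE), Col4a2 at 0.27 ± 0.21 (SE) and Col18a1 at -0.21 ± 0.13 (SE). Nid2 was at -0.08 ± 0.10 (SE) and Itga3 at -0.05 ± 0.08 (SE). The groups of each of these genes overlapped. The standard errors of Col4a1 and Col4a2 were larger than in ESCs. Lamb1 and Lama5, which are abundant in EpiLCs, were at -0.13 ± 0.08 (SE) and 0.01 ± 0.09 (SE). The median log2(fold-change) of the 53 members was -0.03, and 27 were fitted as negative (49.3% of all genes). Of 14 naive pluripotency markers, 10 were fitted higher in exposed EpiLCs and 0 passed. They summed to 590.4 to 621.8 CPM with the vehicle and 623.4 to 652.9 CPM with Δ9-THC, without overlap, and their part in the values of the members was not tested.

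A difference between the effects in EpiLCs and ESCs was tested for the 41 members in both tables. It passed in 0 members, as against 4 of the 12410 genes (0.0322%), and 8 members had an unadjusted p-value under 0.05 (13.7% of all genes). The lowest adjusted p-value was 0.103, for Col27a1, a fibrillar collagen of cartilage. Col27a1 had 3.96, 4.45 and 3.46 CPM in vehicle ESCs and 2.85, 2.48 and 3.35 CPM in exposed ESCs. In EpiLCs it had 3.64, 3.83 and 4.25 CPM with the vehicle and 5.11, 5 and 4.49 CPM with Δ9-THC. Exposed libraries were thus all lower in ESCs and all higher in EpiLCs. Col4a2 differed by 0.72 ± 0.24 (SE; adjusted p-value = 0.222), Lama1 by 0.69 ± 0.26 (SE; adjusted p-value = 0.273) and Col1a1 by -0.56 ± 0.18 (SE; adjusted p-value = 0.195) on the log2 scale, as the effect in EpiLCs minus that in ESCs.

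The other genes of the pathway were counted in 5 lists. In ESCs, 2 of 21 further matrix genes were lower (3.55% of all genes) and 0 higher (3.37% of all genes). These were Fbln1 (fibulin 1, log2(fold-change) -0.19) and Ltbp4, which binds latent TGF-β (-0.26). Of 23 genes that modify and process collagen, 3 were lower and 0 higher: the prolyl hydroxylase P3h3 (-0.38), the cartilage-associated protein Crtap (-0.19) and peroxidasin, Pxdn (-0.42), which crosslinks type IV collagen. Of 18 other matrix receptors, 2 were lower, the syndecan Sdc1 (-0.22) and the collagen receptor Ddr1 (-0.19). Of 20 proteases and inhibitors, 1 was lower, Mmp17 (-0.39). Of 30 adaptors that link integrins to actin, 1 was higher, Crk (0.19), and 0 lower. With the GC and length offsets 0 genes of each list passed, and in EpiLCs 0 genes of any of the 5 lists passed.

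Markers of other cell types were counted in the same way. Of 12 fibroblast markers, 4 were in the table of ESCs and summed to 127.6 to 131 CPM in vehicle libraries and to 112.9 to 116.2 CPM in exposed libraries. Most of this sum was Fbln1, itself lower at 117.7 ± 2.59 against 102.9 ± 2.52 CPM. The others measured were Thy1, Pdgfrb and Twist1, while Dcn, Lum, Postn and Prrx1 were not in the table of ESCs. In EpiLCs the 5 measured markers were these and Dcn. They summed to 83.4 to 90.1 CPM with the vehicle and 74.2 to 79.4 CPM with Δ9-THC. Trophoblast markers (6 of 10 measured) summed to 153 to 154.6 CPM in vehicle ESCs and 150.3 to 152.3 CPM in exposed ESCs, and those of mesoderm and neural cells (5 of 10 measured) to 61.3 to 62.4 and 57.9 to 59 CPM. Of 9 measured primed markers, 2 were lower in exposed ESCs, Pou3f1 (-0.96) and Sox3 (-0.40), where 3.55% of all genes were. With the offsets 0 primed markers passed, and their median log2(fold-change) went from -0.35 to -0.11. The part of these markers in the changes of the matrix genes was not tested.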

How the data were processed

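Poly(A) RNA libraries were prepared by the authors with either of 2 kits and sequenced from both ends. The authors aligned reads with STAR, counted unique reads over exons with HTSeq without strand, removed genes with low counts and adjusted the counts with ComBat-seq, whose batches are not given in the sources used here. The deposited tables hold these adjusted counts, one table for each cell type, and the genome is named both as mm10 and GRCm39 per the labels. 0 columns lacked a sample. Libraries of PGCLCs were not analysed here, and 1 member is counted but its values are not reported here.

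Vehicle and Δ9-THC libraries of a cell type were tested by the quasi-likelihood method of edgeR 4.0.16 with TMM scaling (R 4.3.3), on all genes with more than 10 counts in total and Benjamini-Hochberg adjustment at 0.05. The interaction used 12 libraries. Every test assumes independent libraries, an assumption that libraries sharing a replicate number do not meet after the adjustment. The SDs and the overlap of groups are also those of adjusted counts, and not of independent libraries. CPM were TMM-scaled; RPKM used exon lengths and positions of GENCODE M21 (GRCm38), matched by gene identifier for 13085 of 13104 and 13698 of 13717 genes. Levels across cell types used TMM over all 12 libraries, without a test.

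Genes were named by rule: the 12 highest in each cell type, every call, the 5 largest changes each way with at least 50 counts on average, the 8 largest differences each way between cell types, and core genes of the basement membrane. Other members are named as examples of their class, after their values were seen. Members and lists were chosen with earlier results of these data known. Alternatives were RLE, no filter, a minimum of 10 counts per library, a block for the replicate number, GC and length offsets (natural splines, 5 degrees of freedom), offsets with the block, DESeq2 1.42.0, 1 fit of 12 libraries and leaving out each library.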

Additional observations from a re-analysis of the deposited data

Results flagged for a closer look

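Col27a1, a fibrillar collagen chain, was fitted in opposite directions in the cell types, and neither change passed. Every exposed ESC library was below every vehicle library, and every exposed EpiLC library above every vehicle library. The log2(fold-change) was -0.46 ± 0.14 (SE) in ESCs and 0.32 ± 0.11 (SE) in EpiLCs. The effect in EpiLCs minus that in ESCs was 0.79 ± 0.19 (SE) on the log2 scale, and it did not pass the interaction test of edgeR (adjusted p-value = 0.103). With the GC and length offsets the difference was 0.56. Its levels were between 2.48 and 5.11 CPM over the 12 libraries.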

How the results depend on the processing

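The count of members called in ESCs, 8 of 43, was 6 with RLE, 8 without a filter or with 10 counts in every library, and 10 with DESeq2. It was 0 with the replicate block, with the GC and length offsets, with both, in 1 fit of 12 libraries and without any single library. For ESCs, the number or share of all genes called is given above for the main fit, the block, the offsets and DESeq2. The other counts have no such share beside them. In EpiLCs, DESeq2 and the fit of 12 libraries each called 1 member and the other settings 0. The interaction gave 0 members in every setting run. The number of members at least 2-fold apart between cell types, 20, was 20 to 22 over the settings run. The median log2(fold-change) of the members in ESCs, -0.13, moved to -0.050 with the offsets and -0.049 with offsets and block, and lay between -0.14 and -0.13 without any single library. In EpiLCs that range was -0.060 to -0.015.

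Replicate numbers are shared by the groups, and same-numbered libraries were checked for pairing. Deviations from the group mean correlated at -0.987 to -0.977 within a number in ESCs and at -0.985 to -0.979 in EpiLCs. No pair passed the criterion of 0.1, which a strong negative correlation cannot meet. The criterion therefore cannot show that same-numbered libraries were independent. The block changed the members called in ESCs from 8 to 0 and those of all genes from 906 to 5.

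Directions turned for some named members, which included Lama5 in ESCs at -0.14 and Itga10 in EpiLCs at -0.28. In ESCs, Itga6 (0.00) went to -0.00049 with RLE, -0.00041 with DESeq2 and -0.014 in the fit of 12 libraries. With the offsets, Itgav went to -0.050, Lama5 to 0.024, Lamb1 to 0.038 and Sparc to 0.038, and with the block added to -0.049, 0.024, 0.038 and 0.038. In EpiLCs, Hspg2 (-0.0075), Lama5 (-0.040) and Lamc1 (-0.0011) turned negative with the offsets, and with the block added gave -0.0077, -0.040 and -0.0048. Leaving out a library gave ranges that crossed 0 in ESCs for Itga6 (-0.040 to 0.051), Itgav (-0.033 to 0.051), Itgb1 (-0.032 to 0.054), Lamb1 (-0.11 to 0.046) and Sparc (-0.041 to 0.030). In EpiLCs they crossed 0 for Col4a1 (-0.16 to 0.12), Itga10 (-0.49 to 0.0032), Itgb1 (-0.0095 to 0.14), Lama5 (-0.034 to 0.071), Lamc1 (-0.077 to 0.18) and Nid2 (-0.13 to 0.0060). The cause of these changes was not tested.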
